A study of Mus musculus with 8 samples.

Results

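The Foxa1, Foxa2 and Foxa3 loci were examined for H3K27ac, the acetylation of histone H3 that marks promoters and enhancers in use, in mouse colon cancer organoids with and without Gata6. The mark was profiled by CUT&RUN, where a nuclease tethered to the antibody releases the DNA around it. The loci were taken as the deposited peaks that overlap, by at least 1 base, 147.70 to 147.95 Mb on chromosome 2 for Foxa2, 58.50 to 58.75 Mb on chromosome 12 for Foxa1 and 19.55 to 19.65 Mb on chromosome 7 for Foxa3, all in mm9. These windows held 8, 6 and 7 peaks, or 21 of the 22731 peaks of the series, and all 21 lay wholly inside them. Peaks are numbered within each window in order of position. The peaks were selected on their position alone, but the windows themselves were chosen by the measured H3K27ac difference between knockout and control libraries, which was known when they were proposed.

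Of the 8 samples in the series, 6 are H3K27ac libraries: 3 from Gata6 knockout AKP organoids (Gata6KO), labelled with the genotype Gata6KO_AKP, and 3 from AKP organoids (Control). Both groups carry the AKP genotype, whose alleles the labels do not spell out. The labels give C57Bl6 for the recipient mice. The sources used here give neither how Gata6 was deleted nor whether an organoid line is 1 clone. The H3K4me3 and IgG libraries of the Control organoids were not analysed here, and the values include any background signal. Whether the replicates are separate cultures is not stated in the labels, and the spread between them may be technical.

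FOXA1, FOXA2 and FOXA3 are forkhead transcription factors of the endoderm, first described as hepatocyte nuclear factors. They are called pioneer factors because they can bind their sites in closed chromatin and make the DNA accessible to other factors. In the mouse, FOXA1 and FOXA2 take part in forming the foregut, the liver and the pancreas and, in the intestine, enteroendocrine and goblet cells, while FOXA3 is prominent in the liver. GATA6 is a zinc finger factor of the same endodermal tissues that binds GATA motifs.

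The series' peaks are placed on mm9 and the table pairs them with no genes, so which peak covers which promoter was not determined, nor could the colon identity of the samples be checked on marker genes. In the RefSeq gene order of another assembly, GRCm38.p6, the nearest protein-coding neighbours of Foxa2 are Pax1 and Sstr4, those of Foxa1 are Mipol1 and Ttc6, and those of Foxa3 are Irf2bp1 and Sympk. Peaks in a window may therefore lie in or near such a neighbour. The promoters that the windows are named for are printed here as the 250 bases before the RefSeq start in GRCm38.p6, 5′ to 3′ on the gene's strand, because they show how the 3 starts differ in base composition and motifs. For Foxa2, the outermost of 3 annotated starts is shown. Capitals mark matches on either strand to 6 motifs. The GATA motif was searched as AGATAA and in its other common spelling, TGATAA. The forkhead motif was searched as TGTTTAC and in its other common spelling, TATTTAC. The TATA box was searched as TATAAA, and the CCAAT box under its own name.
Foxa2, chr2:148046970-148047219, minus strand: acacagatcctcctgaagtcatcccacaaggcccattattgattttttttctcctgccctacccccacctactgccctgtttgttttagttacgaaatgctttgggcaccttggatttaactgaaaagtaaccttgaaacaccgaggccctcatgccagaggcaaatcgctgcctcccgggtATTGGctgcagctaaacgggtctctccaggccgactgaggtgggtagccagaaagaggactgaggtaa
Foxa1, chr12:57546112-57546361, minus strand: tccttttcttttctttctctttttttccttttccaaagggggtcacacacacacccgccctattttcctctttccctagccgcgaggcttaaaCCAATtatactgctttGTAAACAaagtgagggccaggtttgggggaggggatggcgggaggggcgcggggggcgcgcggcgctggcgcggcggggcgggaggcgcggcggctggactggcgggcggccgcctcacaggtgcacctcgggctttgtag
Foxa3, chr7:19023540-19023789, minus strand: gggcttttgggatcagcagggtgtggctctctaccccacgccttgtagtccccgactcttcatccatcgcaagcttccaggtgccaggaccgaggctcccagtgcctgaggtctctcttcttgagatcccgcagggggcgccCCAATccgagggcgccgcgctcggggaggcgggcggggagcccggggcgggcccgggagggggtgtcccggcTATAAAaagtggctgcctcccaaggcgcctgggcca

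None of the printed stretches held a GATA motif of these spellings, which 16.6% of 32851 RefSeq promoters of this length held. AGATAA was found once, 177 bases before the innermost Foxa2 start, which is not printed. The Foxa1 stretch held GTAAACA, the reverse complement of TGTTTAC, a forkhead motif found in 3.17% of promoters. Either forkhead spelling was found in 5.76% of promoters. A CCAAT box was found in all 3 stretches, on the reverse strand in Foxa2, and in 33.8% of promoters. The Foxa3 stretch alone of the 3 printed held TATAAA, 30 bases before the start. At any position and on either strand, this motif was found in 12.4% of promoters. Its reverse complement, TTTATA, lay 202 bases before the innermost Foxa2 start. GC content of the printed stretches was 50.8% in Foxa2, 62.0% in Foxa1 and 68.8% in Foxa3, against a median of 52.4% over all promoters. Before the other Foxa2 starts it was 67.2% and 54.4%, so the order of the genes depends on the start taken. These matches describe the letters of the stretches and say nothing of binding.

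Libraries held 5141856 to 7026388 reads in peaks, and the 21 peaks held 28 to 910 reads per library. Levels are edgeR's CPM, the counts per 1000000 reads in peaks after TMM scaling, which cannot show a gain or loss common to the whole genome. Between 82.8% and 88.9% of the counts of a library were even. If both mates of each pair were counted, the counting error at the lowest count, 28 reads in Foxa1 peak 1, was 26.7% (SD). Because the difference between Gata6KO and Control chose the windows, fold changes and calls at these peaks are a description. They come from edgeR's quasi-likelihood fit across all peaks, a peak being called at a Benjamini-Hochberg adjusted p under 0.05, and no p is given for them. Between the groups, more acetylation per cell and more cells that carry it cannot be told apart.

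The Foxa2 window stood apart from the Foxa1 and Foxa3 windows. The Foxa2 window held 8 of 8 peaks called higher in Gata6KO, the Foxa1 window 1 called higher and 1 called lower of 6, and the Foxa3 window none of 7. Across the genome, the same fit called 11.6% of peaks higher and 10.2% lower, so nothing is read from the counts at Foxa1 and Foxa3. The median log2 fold change was 0.94 for the 8 Foxa2 peaks, -0.08 for the 6 Foxa1 peaks and -0.05 for the 7 Foxa3 peaks, beside -0.01 over all 22731 peaks. The medians over all peaks of chromosomes 2, 12 and 7 were 0.00, -0.03 and 0.01.

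**Figure D1:**
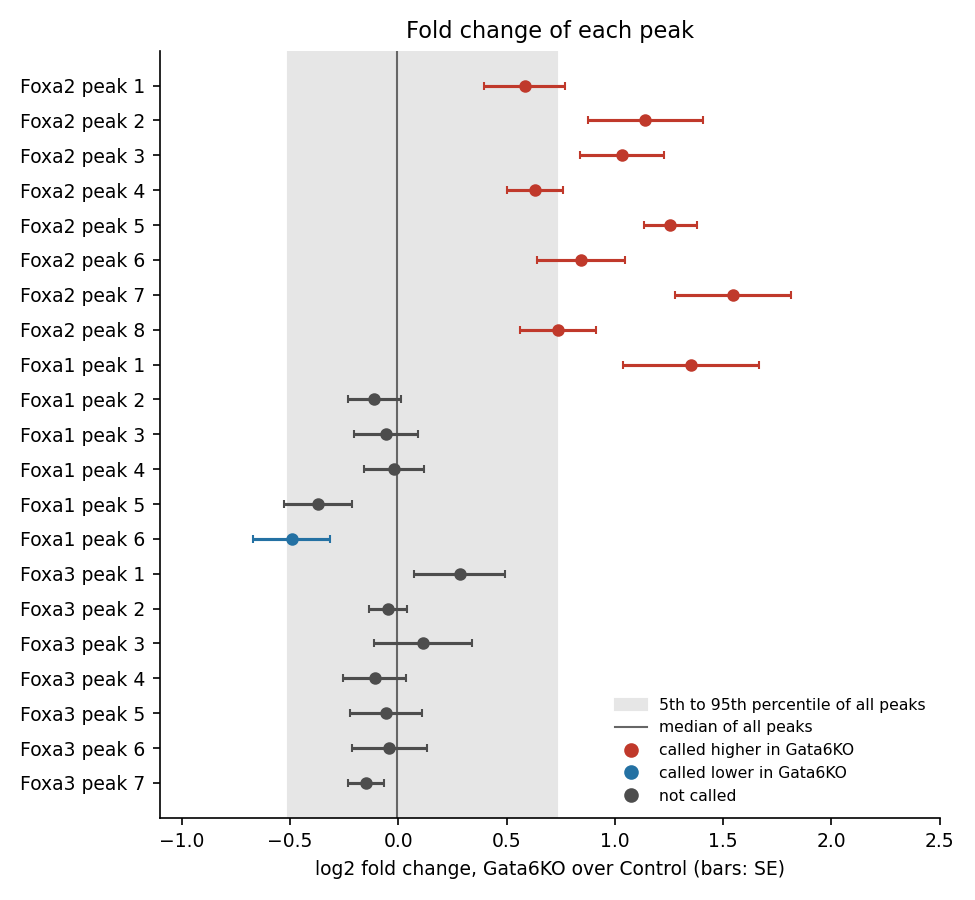
Log2 fold change of Gata6KO over Control for each of the 21 peaks, with its standard error, the median of all peaks (line) and their 5th to 95th percentile, -0.51 to 0.73 (grey). The 8 Foxa2 peaks lie between 0.58 and 1.54, and the Foxa3 peaks between -0.15 and 0.28.

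Foxa2, known in the mouse as a factor of the definitive endoderm, showed more acetylation in Gata6KO organoids across its whole window. The summed level of its 8 peaks was 290.4, 288 and 302 CPM in the Gata6KO libraries and 135, 155 and 168 CPM in the Control libraries. The groups lay far apart, and the lowest Gata6KO sum was 1.72 times the highest Control sum. Means were 293 ± 7.64 CPM in Gata6KO and 153 ± 16.6 CPM in Control (SD, n = 3 each), a ratio of 1.92.

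**Figure D2:**
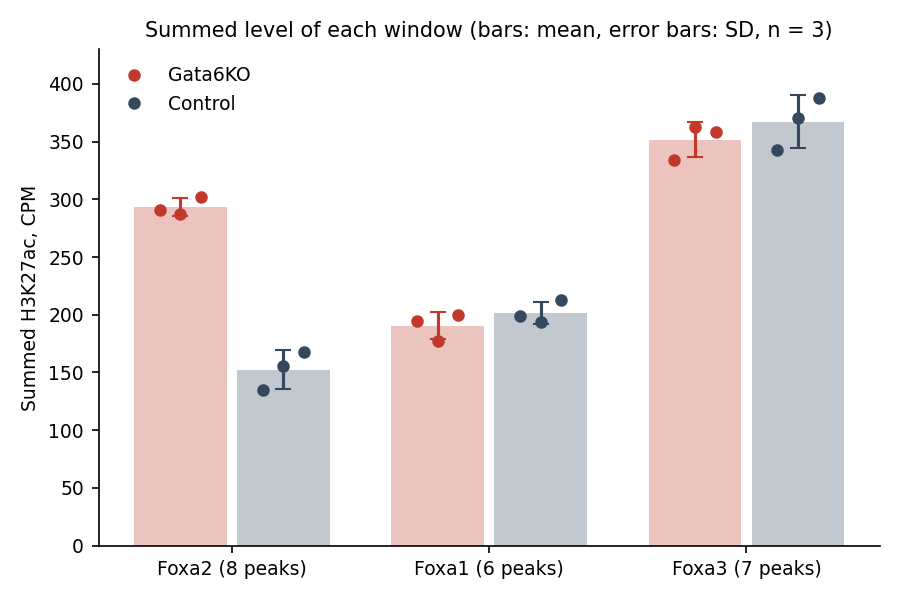
Summed H3K27ac level (CPM) of the peaks in each window, by library (points), with group means (bars) and SD (error bars, n = 3 each). The Foxa2 sums are 288 to 302 CPM in Gata6KO and 135 to 168 CPM in Control, while the groups overlap at Foxa1 and Foxa3.

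The Foxa2 peaks formed an isolated group. They lay between 147752747 and 147872853 on chromosome 2, a span of 120.1 kb, and covered 21.4 kb of it with widths of 1232 to 4957 bp. Peaks 2 to 7 were packed into 33.5 kb, with peak 1 lying 30.8 kb before them and peak 8 lying 50.2 kb after them. The nearest peaks outside the window were 913 kb before peak 1 and 632 kb after peak 8. Gaps between neighbouring peaks had a median of 9.15 kb genome-wide, and 4.48% of them exceeded 500 kb. The outside neighbours, from 146838325 to 146839859 and from 148504707 to 148508302, had log2 fold changes of 0.11 ± 0.17 and 0.04 ± 0.16 (SE) and were not called. Peaks 1 and 8, the outermost inside, had 0.58 ± 0.19 and 0.74 ± 0.17.

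**Figure D3:**
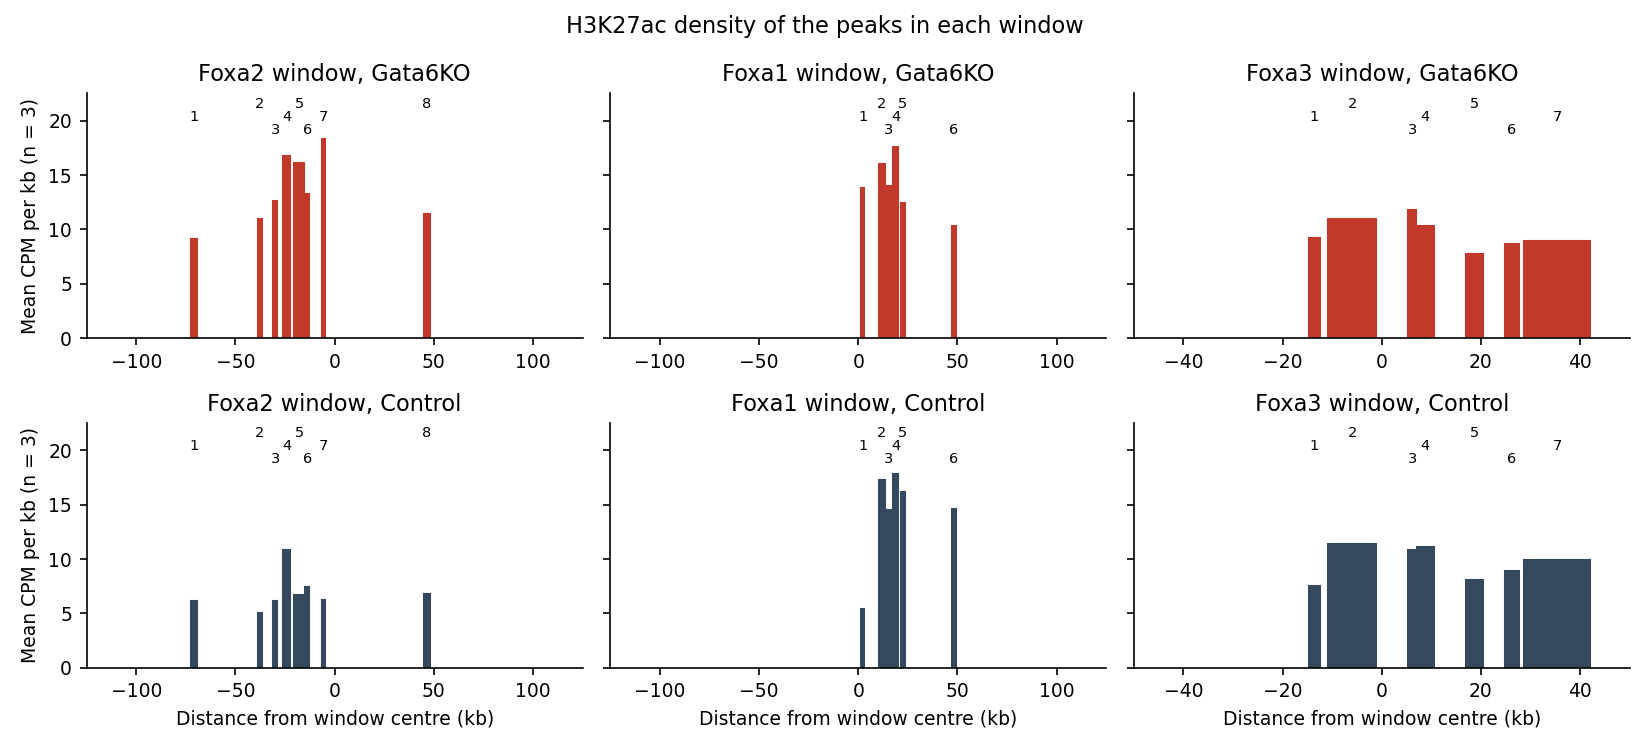
Mean H3K27ac density (CPM per kb of peak, n = 3) along each window in Gata6KO (upper row) and Control (lower row), by distance from the window's centre, with bars drawn to the width of each peak and numbered in order. At Foxa2 every bar is taller in Gata6KO, with densities of 9.12 to 18.3 CPM per kb in Gata6KO and 4.997 to 10.8 CPM per kb in Control.

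Peak 5 of the Foxa2 window, from 147804684 to 147809640 and the widest of the 8, held the highest Gata6KO level. Its levels were 78.7, 79.99 and 80.8 CPM in Gata6KO libraries and 29.6, 33.9 and 36.7 CPM in Control libraries. The Gata6KO libraries were close together and all stood above the 3 Control libraries. The log2 fold change was 1.25 ± 0.12 (SE), or 2.39-fold, and the peak made up 33.0% of the difference in the summed level. Its share of the window's acetylation was 27.2% ± 0.537 in Gata6KO and 21.9% ± 0.0533 in Control (SD, n = 3 each).

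Peak 7, from 147818679 to 147819910, is the narrowest of the 8 and had the largest fold change under TMM scaling. It held 19.2, 24.5 and 24.1 CPM in Gata6KO libraries and 5.91, 7.01 and 10.0 CPM in Control libraries, a log2 fold change of 1.54 ± 0.27 (SE), or 2.92-fold. Offsets that follow the mean count gave it 1.23, below the 1.27 of peak 5, and the peak was still called. By CPM it stood at percentile 35.5 of all peaks in Gata6KO organoids and at percentile 0.708 in Control organoids. How the shared peak list was merged is not given, so a peak may be listed only through its Gata6KO signal. A low rank in Control would then be partly built in. Per kb it was the densest of the 8 in Gata6KO, at 18.3 CPM per kb, against 6.21 CPM per kb in Control.

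Peaks 2 and 3 were likewise weak in Control organoids, and were 2.20-fold and 2.05-fold higher in Gata6KO organoids. Peak 2, from 147786392 to 147788265, held 20.5, 21.4 and 19.9 CPM in Gata6KO libraries and 8.70, 10.5 and 8.88 CPM in Control libraries (log2 fold change 1.14 ± 0.27, SE). Under offsets that follow the mean count, peak 2 had 0.89 and was still called. Peak 3, from 147793801 to 147796062, held 27.9, 25.8 and 32.1 CPM in Gata6KO libraries and 11.3, 15.2 and 15.3 CPM in Control libraries (1.03 ± 0.19). In both peaks the lowest Gata6KO library stood well above the highest Control library.

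Peak 4, from 147799051 to 147802571, was the strongest Foxa2 peak in Control organoids. It held 55.4, 63.5 and 58.0 CPM in Gata6KO libraries and 31.3, 41.1 and 41.5 CPM in Control libraries, and its log2 fold change of 0.63 ± 0.13 (SE) was among the smaller of the 8. Its share of the window was 20.1% ± 1.69 in Gata6KO and 24.8% ± 1.63 in Control (SD, n = 3 each). In total CPM, peak 5 stood above peak 4 in each Gata6KO library and below it in each Control library. Per kb, peak 4 stood above peak 5 in both groups, at 16.8 against 16.1 CPM per kb in Gata6KO and 10.8 against 6.73 CPM per kb in Control.

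The other 3 Foxa2 peaks had fold changes of 1.498 to 1.80. Peak 6, from 147810171 to 147812087 and only 530 bp after peak 5, held 24.4, 22.0 and 30.1 CPM in Gata6KO libraries and 13.9, 14.4 and 14.3 CPM in Control libraries (log2 fold change 0.84 ± 0.20, SE). Peak 8, from 147870145 to 147872853, held 36.9, 27.4 and 28.9 CPM in Gata6KO libraries and 14.4, 16.0 and 24.9 CPM in Control libraries. Here Control replicate 3 came close to the Gata6KO libraries, and the log2 fold change of 0.74 ± 0.17 (SE) was 1.03 without that library. Peak 1, from 147752747 to 147755633, held 27.5, 23.2 and 28.2 CPM in Gata6KO libraries and 19.7, 17.1 and 16.0 CPM in Control libraries (0.58 ± 0.19). It lost its call without Control replicate 3, Gata6KO replicate 1 or Gata6KO replicate 3, at log2 fold changes of 0.52, 0.55 and 0.53, so that 7 of 8 peaks were then called.

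In all 8 Foxa2 peaks, the 3 Gata6KO libraries lay entirely above the 3 Control libraries, as they did at 17.5% of all peaks. Among the 16725 peaks whose mean level fell in the range of the Foxa2 peaks, 10.3% were called higher. On chromosome 2 as a whole, 11.8% of 1828 peaks were called higher. A log2 fold change at or above that of peak 1, the smallest of the 8, was found at 7.64% of all peaks. Since the difference between the groups chose the window, these shares are given beside the counts and nothing is read from them.

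**Figure D4:**
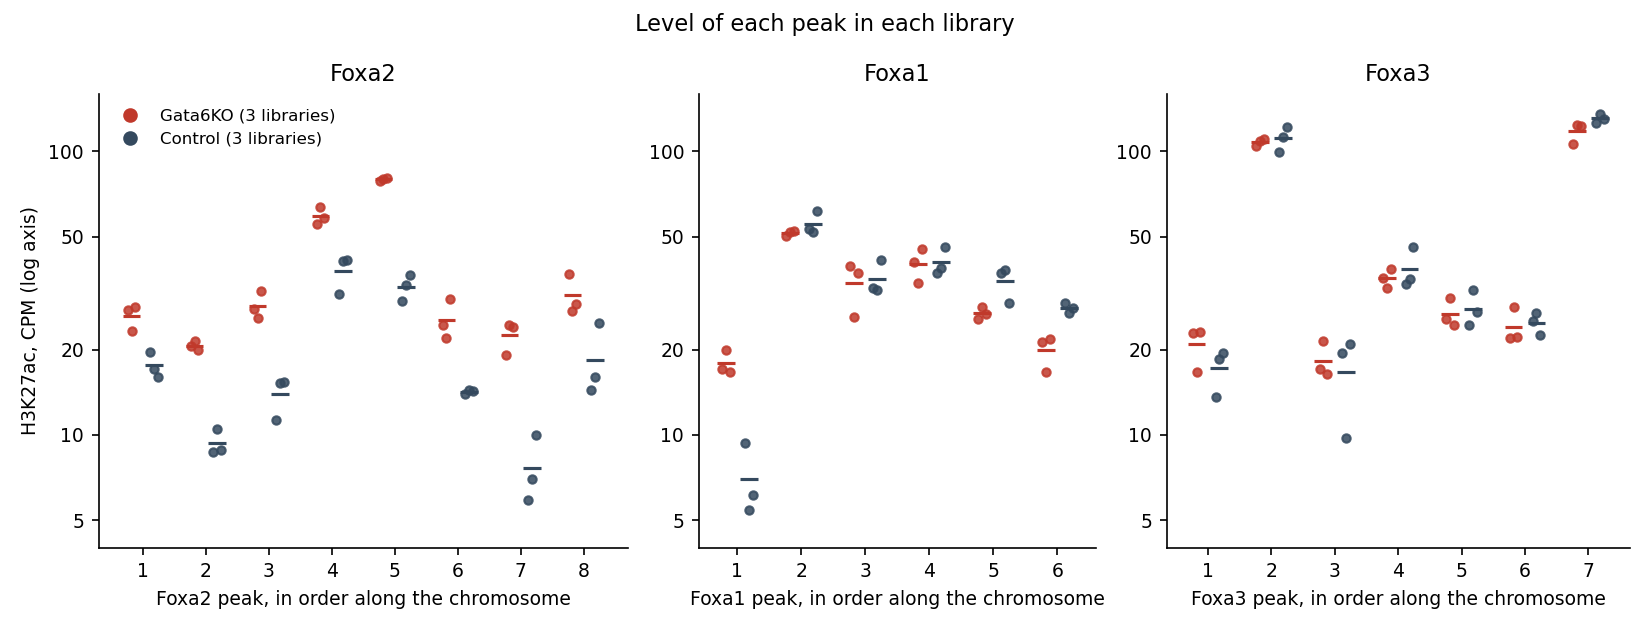
H3K27ac level (CPM, log axis) of each peak in each library, with group means (lines), Gata6KO to the left of Control at each peak. The groups are separate at all 8 Foxa2 peaks, at Foxa1 peaks 1, 5 and 6 and at Foxa3 peak 7.

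In Control organoids most Foxa2 peaks were thinly acetylated for their width. By CPM per kb, the 8 stood at percentiles 26.6 to 95.7 of all peaks in Gata6KO organoids. In Control organoids 7 of them stood at percentiles 1.83 to 11.2, and peak 4 stood at percentile 50.6. Low ranks in Control may be partly built in, since the window was chosen by the difference and the peak list is shared. Over the whole window, the Foxa2 density was 13.7 ± 0.358 CPM per kb in Gata6KO and 7.14 ± 0.778 CPM per kb in Control (SD, n = 3 each). The Foxa1 window had 14.3 ± 0.887 CPM per kb in Gata6KO and 15.1 ± 0.723 CPM per kb in Control. The Foxa3 window had 9.61 ± 0.413 CPM per kb in Gata6KO and 10.04 ± 0.627 CPM per kb in Control. The order by density was thus Foxa1, Foxa2, Foxa3 in Gata6KO and Foxa1, Foxa3, Foxa2 in Control, and Foxa1 and Foxa2 in Gata6KO were the only neighbours in these orders that differed by less than their spread.

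Foxa1, the closest relative of Foxa2 in the family, showed no difference of this kind over its whole window. Its summed level was 195, 177 and 200.1 CPM in Gata6KO libraries and 199, 194 and 212 CPM in Control libraries. The groups overlapped, with means of 191 ± 11.8 CPM in Gata6KO and 202 ± 9.63 CPM in Control (SD, n = 3 each) and a ratio of 0.945. That overlap depended on peak 1. Peaks 2 to 6 summed to 177.4, 157.4 and 183.4 CPM in Gata6KO libraries and 189.9, 188.1 and 206.2 CPM in Control libraries. Each Gata6KO sum of these peaks was below each Control sum, at a ratio of 0.887. Single peaks were separated in this direction at 16.2% of all peaks. Within this subset, the sums of peaks 2 to 4 overlapped between the groups (ratio 0.956), while those of peaks 5 and 6 did not (0.743). Peak 1 was left out with its level known, so nothing is read from the separation. Within the window, peak 1 was called higher and peak 6 lower, beside 11.6% higher and 10.2% lower over all peaks. Nothing is read from these calls.

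Foxa1 peak 1, from 58626602 to 58627898, was called higher in Gata6KO. It held 17.1, 19.95 and 16.7 CPM in Gata6KO libraries and 9.39, 5.45 and 6.16 CPM in Control libraries, a log2 fold change of 1.35 ± 0.31 (SE), or 2.55-fold. All Gata6KO libraries stood above all Control libraries, although the peak rests on only 28 to 110 reads per library. In Control it was among the weakest peaks of the series, at percentile 0.466 by CPM, and in Gata6KO it stood at percentile 17.1. The peak may be listed only through its Gata6KO signal, since the peak list is shared. Its low rank in Control and its fold change may then be partly built in. Its share of the Foxa1 window was 9.45% ± 1.57 in Gata6KO and 3.48% ± 1.07 in Control (SD, n = 3 each). With offsets that follow the mean count, its log2 fold change was 0.89 and it was still called.

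Foxa1 peaks 2 to 4 lay 7.39 kb after peak 1 and held most of the window's acetylation. They ran from 58635291 to 58645052, separated by gaps of 348 and 1468 bp. Their levels summed to 131, 113 and 135 CPM in Gata6KO libraries and 123.5, 123.1 and 149 CPM in Control libraries, and none was called. The groups overlapped at each of them, and their log2 fold changes were -0.11 ± 0.12, -0.06 ± 0.15 and -0.02 ± 0.14 (SE). Peak 4, from 58642774 to 58645052, was the densest peak of the 3 windows in Control, at 17.6 CPM per kb in Gata6KO and 17.8 CPM per kb in Control. These densities stood at percentiles 94.6 and 95.3 of all peaks in Gata6KO and Control.

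Foxa1 peaks 5 and 6 held less acetylation in every Gata6KO library than in any Control library, as did 16.2% of all peaks. Peak 5, from 58646322 to 58648479, held 25.6, 28.3 and 26.6 CPM in Gata6KO libraries and 37.2, 38.2 and 29.2 CPM in Control libraries. Control replicate 3 lay near the Gata6KO libraries, and the log2 fold change of -0.37 ± 0.16 (SE) was not called, while without that library it was -0.49 and called. Peak 6, from 58672235 to 58674160 and 23.8 kb further on, held 21.2, 16.7 and 21.8 CPM in Gata6KO libraries and 29.2, 26.9 and 28.1 CPM in Control libraries. It was called lower, with a log2 fold change of -0.49 ± 0.18 (SE). That call was lost without Control replicate 1 (-0.46), Control replicate 3 (-0.49) or Gata6KO replicate 2 (-0.38), and at an adjusted p under 0.01. On chromosome 12 as a whole, 10.0% of 927 peaks were called higher and 12.2% lower.

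The Foxa1 window was also set apart from other peaks, with the nearest ones outside it 294 kb before peak 1 and 1280 kb after peak 6. The one before it, from 58330979 to 58332934, held 17.0 ± 2.72 CPM in Gata6KO and 23.6 ± 1.63 CPM in Control (SD, n = 3 each) and was not called at a log2 fold change of -0.47 ± 0.20 (SE). The peak beyond the other edge, from 59952603 to 59954699, had 0.17 ± 0.19.

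The window of Foxa3, a factor prominent in mouse liver, had the widest peaks of the 3 windows and no peak that was called. Its summed level was 334, 362 and 358 CPM in Gata6KO libraries and 343, 371 and 388 CPM in Control libraries. The groups overlapped, with means of 352 ± 15.1 CPM in Gata6KO and 367 ± 22.9 CPM in Control (SD, n = 3 each) and a ratio of 0.958. Of its 7 peaks, which covered 36.6 kb, 0 were called by edgeR and 0 by DESeq2. Over all peaks, edgeR called 11.6% higher and 10.2% lower, so nothing is read from this count. An unadjusted p under 0.05 in edgeR's fit was found at 0 of 7 Foxa3 peaks, 3 of 6 Foxa1 peaks and 8 of 8 Foxa2 peaks.

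A pair of broad peaks carried most of the signal in the Foxa3 window. Peak 7, from 19628718 to 19641932 and 13215 bp wide, held 106, 124 and 123 CPM in Gata6KO libraries and 126, 135 and 130.3 CPM in Control libraries. Its groups lay just apart, with each Gata6KO library below each Control library, as at 16.2% of all peaks. The log2 fold change of peak 7 was -0.15 ± 0.08 (SE), and it was not called. Peak 2, from 19589123 to 19598939, held 105, 109 and 110.3 CPM in Gata6KO libraries and 99.5, 113 and 122 CPM in Control libraries, and its groups overlapped. By width peaks 7 and 2 stood at percentiles 97.7 and 95.5 of all peaks, but by CPM per kb in Control at percentiles 38.4 and 57.7.

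The remaining 5 Foxa3 peaks held 18.3 to 35.8 CPM on average in Gata6KO and 16.7 to 38.5 CPM in Control, and the groups overlapped at each. Their log2 fold changes were 0.28 ± 0.21 for peak 1, 0.11 ± 0.22 for peak 3, -0.11 ± 0.15 for peak 4, -0.06 ± 0.17 for peak 5 and -0.04 ± 0.18 for peak 6 (SE). The largest of these, peak 1 from 19585311 to 19587591, held 23.0, 16.7 and 23.1 CPM in Gata6KO libraries and 13.6, 18.5 and 19.5 CPM in Control libraries. Peak 3, from 19605385 to 19606932, had the largest SD relative to its mean of the 7 in Control, since Control replicate 2 held 9.74 CPM beside 19.5 and 20.9 CPM in the other Control libraries.

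Unlike those of Foxa2 and Foxa1, the Foxa3 window had near neighbours outside it. The peak 14.0 kb after its end, from 19664006 to 19672380, held 100.5 ± 7.10 CPM in Gata6KO and 102 ± 4.92 CPM in Control (SD, n = 3 each). The peak 15.3 kb before its start, from 19532716 to 19534697, held 20.1 ± 0.364 CPM in Gata6KO and 16.9 ± 2.51 CPM in Control. Neither was called, at log2 fold changes of -0.02 ± 0.09 and 0.26 ± 0.22 (SE).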

How the data were processed

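H3K27ac CUT&RUN was compared between 3 Gata6KO and 3 Control AKP organoid libraries. The deposited table holds unnormalized read counts of the 6 libraries over a single shared peak set. The width of each peak is in the deposited table. Per the submitters' processing notes, the build was mm9 and the tools were SEACR, Bowtie, SAMtools, bedtools and Picard, with no versions or roles. How peaks were merged and counted is not given in the sources used here.

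All 22731 peaks passed edgeR's filter and were fitted with edgeR 4.0.16 in R 4.3.3 (TMM, quasi-likelihood, group only, two-sided, Benjamini-Hochberg). Standard errors came from the F statistic. Locus sums are sums of TMM-scaled CPM, given without a test, since an exact permutation of 3 against 3 libraries cannot go below p = 0.1. The fit was tested on simulated data. Halved counts differed by a chi-square per degree of freedom of 1.53 to 1.84 within groups and 3.97 to 4.85 between them, so no library looked like a copy. Each window had at most 10 peaks, so each peak is described. Alternatives were DESeq2 1.42.0, other scaling, filters, thresholds and windows, the replicate number as a block, and each library left out. The windows, motifs and lists were chosen with earlier results of these data known. The planned list of other gut transcription factors and the protein comparison were not run, for want of mm9 gene positions and protein sequences. Promoters are from the RefSeq table of GRCm38.p6, where all 3 genes were matched.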

Additional observations from a re-analysis of the deposited data

How the results depend on the processing

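Scaling with factors off chromosome 5 was chosen after the data had been seen. The median log2 fold change of the 1863 peaks of chromosome 5 was -0.26, beside -0.01 over all peaks. The Foxa2 window kept 7 or 8 peaks called higher, the Foxa1 window 1 and the Foxa3 window 0 under DESeq2, the other scalings, filters and windows, halved counts, the stricter threshold and each library left out. At an adjusted p under 0.01 there were 0 Foxa1 peaks called lower in place of 1, and 1478 lower calls over all peaks in place of 2320, since fewer can pass by construction. With each library left out, 0 to 1 Foxa1 peaks were called lower. The Foxa2 sum had a log2 ratio of 0.84 to 0.95 across the alternatives and 0.87 to 1.02 with a library left out, the Foxa1 sum -0.10 to -0.07 and -0.12 to -0.03, and the Foxa3 sum -0.08 to -0.02 and -0.11 to -0.02. With a library left out, the direction of 7 uncalled peaks reversed, with log2 fold changes of -0.17 to 0.10 at Foxa1 peak 3 and -0.11 to 0.079 at Foxa1 peak 4, and of -0.12 to 0.027, -0.15 to 0.31, -0.19 to 0.044, -0.16 to 0.057 and -0.17 to 0.021 at Foxa3 peaks 2, 3, 4, 5 and 6. No label pairs libraries by number. Across groups, deviations from the group mean correlated at 0.00591 to 0.0668 between libraries with the same number and at -0.0489 to 0.0403 between others, and some libraries correlated best with another number. With the number as a replicate block, 2704 peaks were called higher and 2409 lower, and no call among the 21 peaks changed. Depth limits the weakest peaks most, with 28 to 54 reads in Foxa1 peak 1 and 34 to 70 in Foxa2 peak 7 in Control libraries.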

Other observations

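Elsewhere in the genome, the peaks whose log2 CPM followed a locus sum most closely over the 6 libraries were taken from those at or above the median mean level, with Pearson's r as the measure. The 6 points share their libraries and depth, and each peak was picked for its high r, so these are descriptions. For Foxa2 they lay on chromosome 11 from 99960381 to 99970211 (r = 0.998), on chromosome 17 from 46378230 to 46383309 (r = 0.998) and on chromosome 11 from 120543441 to 120551474 (r = 0.997). Their mean levels were 148, 62.6 and 162 CPM in Gata6KO and 68.5, 51.0 and 94.7 CPM in Control, so the same shape went with log2 fold changes of 1.11, 0.30 and 0.77. For Foxa1 they lay on chromosome 5 from 137588944 to 137592918 (r = 0.996), on chromosome 11 from 5639671 to 5641667 (r = 0.989) and on chromosome X from 71104316 to 71108395 (r = 0.985). For Foxa3 they lay on chromosome 17 from 6986221 to 6988376 (r = 0.991), on chromosome 7 from 52132441 to 52138938 (r = 0.980) and on chromosome 12 from 109441901 to 109468759 (r = 0.980).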
